A study of Mus musculus with 12 samples.

Results

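The 36 genes described here encode MYC and 35 nucleolar proteins that make ribosomes, and they were followed in CD11b dendritic cells (DCs) of mice that carried an adenovirus with or without a TGF-β1 gene. The members were picked by gene symbol. All 36 were among the 24391 symbols of the count table, and all 36 passed the low-count filter that left 13221 genes for testing. Dendritic cells take up antigen and present it to T cells, and those that carry the integrin CD11b are one of their main subsets in the lung.

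Every mouse was a wild-type C57BL/6J animal, 8 to 12 weeks old, that had inhaled a replication-deficient adenovirus through the trachea. The vector either held no insert (AdCL, the control) or the pig gene for TGF-β1 in its active form (AdTGFb1), so all groups carried an adenovirus and no group was without one. The series title speaks of established pulmonary fibrosis. Experiment 1 gave AdCL DC 7, 8 and 9 and AdTGFb1 DC 14, 52 and 54, and experiment 3 gave AdCL DC 943, 944 and 949 and AdTGFb1 DC 954, 955 and 956, as 12 libraries of polyadenylated RNA in 4 groups of 3. The sources used here do not give whether a DC number stands for 1 animal or a pool, which organ and gate the cells came from, or how long after the vector they were taken, so the p-values measure the spread between these libraries. Below, values of a gene are listed in the order of the DC numbers just given.

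Ribosomes are built in the nucleolus. RNA polymerase I copies the ribosomal DNA into a long precursor RNA, small nucleolar RNAs (snoRNAs) in protein particles of the box C/D and box H/ACA classes guide its methylation and pseudouridylation, and separate sets of assembly factors fold and cut it into the small and the large subunit. MYC is the transcription factor best known for driving these genes together, and it binds the E-box CACGTG. In dendritic cells, protein synthesis and with it ribosome production shift as the cells mature.

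Libraries held between 10099912 and 15594546 counts, and levels are given in CPM, counts scaled to a common depth with TMM-adjusted library sizes. Read from Xist and Ddx3y, AdCL DC 7, 8 and 9 and AdTGFb1 DC 14 were male and the other 8 libraries female. The defining markers of the labelled cell were present: the 9 CD11b DC markers summed to between 18334 and 35274 CPM, with none at 0 in a whole group. They moved with the vector: 6 of the 9 were lower and 1 higher over both experiments, and their sum was 27641 to 30699 CPM with AdCL and 18334 to 22488 with AdTGFb1 in experiment 1, while in experiment 3 the ranges of 26158 to 35274 and 23447 to 29264 overlapped. Markers of alveolar macrophages (8 genes) summed to 62.4 to 161 CPM with AdCL and 1140 to 2295 with AdTGFb1 in experiment 1, and to 169 to 574 and 89.5 to 96.9 in experiment 3. In experiment 1, markers of mature migrating DCs (8 genes) summed to 4214 to 4558 CPM with AdCL and to 1537 to 1828 with AdTGFb1, and in experiment 3 to 3700 to 5707 and to 1074 to 1761. Markers of monocytes and macrophages (11 genes) ran the other way, from 3746 to 4457 and from 8275 to 11090 CPM in experiment 1 and from 7104 to 8767 and from 14642 to 18635 in experiment 3. Markers of endothelial cells (12 genes) stood apart in AdCL of experiment 1, at 202 to 671 CPM against 38.2 to 190 in the other 3 groups. Markers of dividing cells (10 genes) were at 904 to 1091 CPM with AdCL and 1208 to 1421 with AdTGFb1 in experiment 1, but at 993 to 1131 and 600.4 to 659 in experiment 3. The part of these measures in the results below was not tested, beyond the terms for sex and for endothelial markers given where they bear. In bulk RNA, fewer cells of a type and less RNA per cell cannot be told apart.

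The first question was how the vector changed the 36 genes over both experiments, with the experiment as a term in the fit. Of the 36, 9 were lower with AdTGFb1 at an adjusted p under 0.05 and 0 were higher (edgeR's quasi-likelihood test, Benjamini-Hochberg over 13221 genes), which is 25% of the members beside 10.4% of all genes called lower and 6.78% called higher. DESeq2 called 10 lower, Nop56 in addition, and 0 higher, beside 1698 of the 13221 genes lower and 1146 higher. At an unadjusted p under 0.05 edgeR had 14 lower and 1 higher (Bms1), and the share of all genes at that threshold is not given here. The 9 lower at the adjusted p in edgeR were Polr1d, Ncl, Fbl, Nop58, Wdr43, Utp18, Tsr1, Ltv1 and Rrp12. They span polymerase I, nucleolin, the box C/D particle and the small subunit. Their falls ran from 23.3% for Ncl to 49.4% for Nop58. The median log2 fold change was -0.20 over the members and -0.002 over all genes, and 27 of the 36 estimates lay below 0, beside 50.1% of all genes. With a term for sex, or with one for endothelial markers, 5 of the 9 were called in each case, namely Polr1d, Fbl, Nop58, Ltv1 and Rrp12. Of all genes, 919 were lower and 582 higher with the term for sex, and 1134 and 653 with the one for endothelial markers. In experiment 1 every AdCL library was male and AdTGFb1 DC 14 was the only male AdTGFb1 library, while experiment 3 was all female. The fits with a term for sex, here and below, therefore separate sex from vector poorly.

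**Figure D1:**
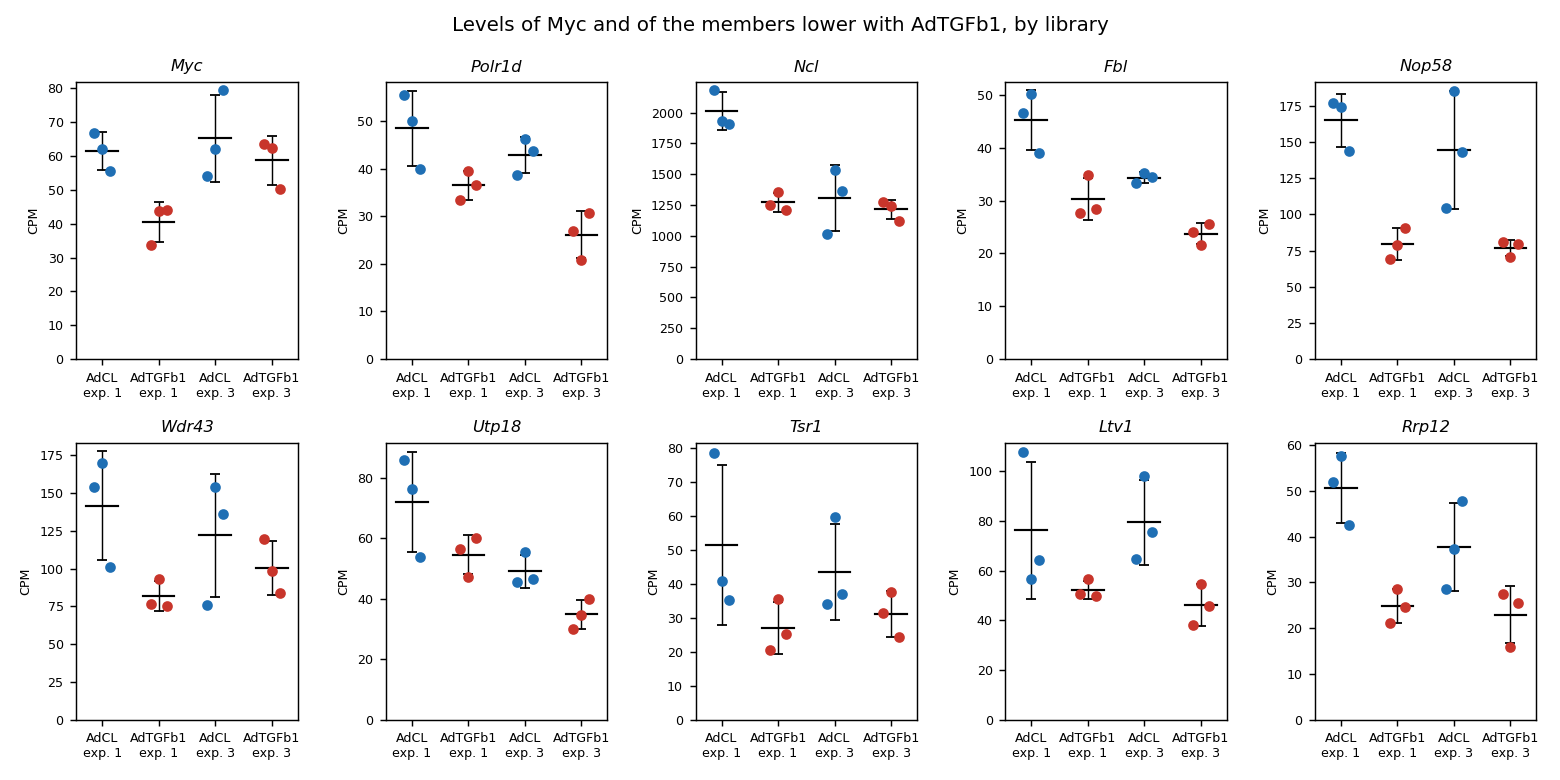
Levels in CPM (y axis, from 0) of Myc and of the 9 members lower with AdTGFb1 over both experiments, by group (x axis). Points are the 12 libraries, blue for AdCL and red for AdTGFb1, and lines with bars are the mean ± SD of 3 libraries. For Nop58 every red point lies below every blue one, while Ncl separates only in experiment 1.

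The 4 small subunit genes with the strongest evidence that carried CACGTG near their start, and the strongest fallen gene without it, are shown first because MYC binds that sequence. The RefSeq promoter table (build GRCm38.p6, 250 bases before to 50 bases after the start of the gene, read 5′ to 3′ on the strand of the gene) held 30 of the 36 members. Capitals mark CACGTG, which reads the same on both strands.
Ltv1, chr10:13193088-13193387, minus strand: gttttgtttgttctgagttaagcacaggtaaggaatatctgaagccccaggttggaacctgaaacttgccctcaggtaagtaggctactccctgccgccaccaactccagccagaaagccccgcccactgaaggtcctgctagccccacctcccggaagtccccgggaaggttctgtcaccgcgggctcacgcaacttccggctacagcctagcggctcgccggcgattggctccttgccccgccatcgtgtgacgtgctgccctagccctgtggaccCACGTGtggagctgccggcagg
Tsr1, chr11:74897830-74898129, plus strand: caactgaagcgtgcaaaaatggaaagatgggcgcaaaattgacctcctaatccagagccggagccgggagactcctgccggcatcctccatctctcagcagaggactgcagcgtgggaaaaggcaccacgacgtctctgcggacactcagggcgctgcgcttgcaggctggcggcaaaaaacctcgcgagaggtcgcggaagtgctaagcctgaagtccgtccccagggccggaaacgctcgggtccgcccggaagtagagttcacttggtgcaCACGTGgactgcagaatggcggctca
Utp18, chr11:93885717-93886016, minus strand: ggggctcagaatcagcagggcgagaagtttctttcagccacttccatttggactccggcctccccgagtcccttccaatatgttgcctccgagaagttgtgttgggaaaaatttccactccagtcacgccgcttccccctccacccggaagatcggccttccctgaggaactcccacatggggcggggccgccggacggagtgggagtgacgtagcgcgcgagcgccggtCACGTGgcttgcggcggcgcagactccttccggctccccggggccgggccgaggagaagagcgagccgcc
Wdr43, chr17:71615965-71616264, plus strand: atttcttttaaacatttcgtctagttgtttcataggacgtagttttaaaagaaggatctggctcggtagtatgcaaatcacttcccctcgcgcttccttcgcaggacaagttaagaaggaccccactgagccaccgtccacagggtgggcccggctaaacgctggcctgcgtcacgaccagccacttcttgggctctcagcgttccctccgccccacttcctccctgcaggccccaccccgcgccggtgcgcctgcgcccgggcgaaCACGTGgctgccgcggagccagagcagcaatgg
Nop58, chr1:59684756-59685055, plus strand: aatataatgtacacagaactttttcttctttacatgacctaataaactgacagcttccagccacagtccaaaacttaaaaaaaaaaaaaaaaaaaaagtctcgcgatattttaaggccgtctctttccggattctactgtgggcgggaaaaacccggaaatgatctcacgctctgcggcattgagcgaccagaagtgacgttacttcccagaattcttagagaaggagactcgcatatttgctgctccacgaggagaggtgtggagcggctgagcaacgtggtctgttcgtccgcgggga
CACGTG began at base 29 of the transcript in Ltv1, at base 25 in Tsr1, 20 bases before the start in Utp18 (position -20), and at base 18 in Wdr43. The window of Nop58 held none. Of the 30 members, 7 (23.3%) held CACGTG, namely Nop2, Ltv1, Utp20, Pes1, Tsr1, Utp18 and Wdr43, beside 8.09% of the 27025 genes in the table. Among members lower with AdTGFb1, 4 of 7 held it, and among those not called 3 of 23 did. The lower members Fbl and Rrp12 had no entry in the promoter table and are not among the 7. Of the lower members with CACGTG, Utp18 kept its call in 2 of the 12 refits without 1 library, Wdr43 in 3, Tsr1 in 6 and Ltv1 in 11. Of the lower members without it, Ncl kept its call in 3, Polr1d in 8 and Nop58 in 12. With a term for sex, or one for endothelial markers, only Ltv1, Polr1d and Nop58 of the 7 were called, so the split by call rests on unstable calls. CCGGAAG, the core of ETS factor sites, lay on either strand in 10 of the 30 (33.3%) beside 9.93% of genes, and GGGCGG, a GC box, in 21 (70.0%) beside 38.2%. By call, CCGGAAG lay in 3 of the 7 lower members and in 7 of the 23 not called. For GGGCGG these were 6 of 7 and 15 of 23. These are matches of letters in 1 window, and no binding was measured.

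MYC itself was called in experiment 1 but not over both experiments. Myc stood at 66.7, 62.1 and 55.5 CPM in AdCL and 33.6, 43.7 and 44.1 in AdTGFb1 of experiment 1, and at 54.2, 62.0 and 79.5 in AdCL and 63.4, 62.4 and 50.4 in AdTGFb1 of experiment 3. The 3 AdTGFb1 libraries of experiment 1 were below every other library, and the groups of experiment 3 overlapped. Within experiment 1 the change was -0.60 ± 0.20 on the log2 scale (SE, adjusted p = 0.032), within experiment 3 -0.15 ± 0.20 (adjusted p = 0.77), and over both -0.38 ± 0.15 (adjusted p = 0.099). The difference between the experiments, 0.45 ± 0.28, did not pass (adjusted p = 0.39). The call within experiment 1 held in 6 of the 12 refits that each left out 1 library, and was lost without AdCL DC 7, 8 or 944 or AdTGFb1 DC 14, 52 or 54 (largest adjusted p 0.14).

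Of the 5 RNA polymerase I members, 1 was lower over both experiments, Polr1d, a small subunit that polymerases I and III share. Polr1d measured 55.5, 49.95 and 39.9 CPM in AdCL and 33.5, 39.6 and 36.5 in AdTGFb1 of experiment 1, and 38.7, 46.2 and 43.7 in AdCL and 26.9, 20.8 and 30.7 in AdTGFb1 of experiment 3. Within each experiment every AdTGFb1 library was below every AdCL library, and over both the change was -0.56 ± 0.16 (adjusted p = 0.020). Polr1c, the subunit that pairs with it in both polymerases, had 30.4, 24.5 and 17.1 CPM in AdCL and 16.9, 14.7 and 21.2 in AdTGFb1 of experiment 1, and 14.0, 28.5 and 19.97 in AdCL and 7.82, 14.7 and 15.2 in AdTGFb1 of experiment 3. Its estimate was as large, -0.59 ± 0.25, but its libraries overlapped in both experiments and it did not pass (adjusted p = 0.13). Ubtf, the factor UBF that opens ribosomal DNA for polymerase I, was at 106, 109 and 119 CPM in AdCL and 122, 114 and 133 in AdTGFb1 of experiment 1, and at 107, 114 and 109 in AdCL and 126, 149.7 and 122 in AdTGFb1 of experiment 3. All 3 AdTGFb1 libraries of experiment 3 were above the AdCL ones, and the estimate over both was 0.21 ± 0.11 (adjusted p = 0.21). The catalytic subunits Polr1a and Polr1b had estimates of 0.11 ± 0.16 and -0.15 ± 0.41.

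Of the 3 nucleolar phosphoproteins, 1, Ncl, was lower. Nucleolin (Ncl), which binds the precursor RNA and ribosomal DNA, stood at 2188, 1935 and 1911 CPM in AdCL and 1252, 1353 and 1209 in AdTGFb1 of experiment 1, and at 1016, 1537 and 1365 in AdCL and 1279, 1240.5 and 1124 in AdTGFb1 of experiment 3. The AdCL libraries of experiment 1 were above all 9 others, and the groups of experiment 3 overlapped. The change was -0.66 ± 0.14 within experiment 1 (adjusted p = 0.0011) and -0.10 ± 0.14 within experiment 3 (adjusted p = 0.77). Over both it was -0.38 ± 0.12 (adjusted p = 0.041). Adding sex to the fit gave -0.29 (adjusted p = 0.21), and adding endothelial markers gave -0.26 (adjusted p = 0.15). The difference between the 2 effects was 0.56 ± 0.20 (adjusted p = 0.093 in edgeR), and DESeq2 called it. Between the AdCL groups alone Ncl was 0.62 ± 0.14 log2 units lower in experiment 3 (estimate -0.62, adjusted p = 0.0062). Nucleophosmin (Npm1), a chaperone for histones and assembling subunits, had 469.8, 374 and 441 CPM in AdCL and 357, 342 and 334 in AdTGFb1 of experiment 1, and 322, 361 and 317 in AdCL and 324, 295 and 249.6 in AdTGFb1 of experiment 3. The libraries separated in experiment 1 only, and the estimate over both of -0.26 ± 0.10 did not pass (adjusted p = 0.093). Nolc1, which escorts snoRNA particles, had 117, 118 and 138 CPM in AdCL and 111, 109.6 and 106 in AdTGFb1 of experiment 1, and 72.7, 137 and 102 in AdCL and 104, 87.4 and 79.5 in AdTGFb1 of experiment 3. AdCL DC 943 held its lowest value, and the estimate was -0.20 ± 0.14 (adjusted p = 0.36).

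The box C/D core, the particle that places methyl groups on ribosomal RNA, had the lowest estimates as a group, with 2 of its 3 proteins lower over both experiments and a median of -0.56. Nop58, one of its scaffold proteins, was at 177, 174 and 144 CPM in AdCL and 68.9, 78.8 and 90.7 in AdTGFb1 of experiment 1, and at 104, 185 and 143 in AdCL and 80.8, 70.4 and 79.5 in AdTGFb1 of experiment 3. All 6 AdTGFb1 libraries were below all 6 AdCL libraries, with means of 78.2 ± 7.91 and 155 ± 30.3 CPM (SD, n = 6), which Ltv1 alone of the other members also showed. Its change was -0.98 ± 0.14 over both experiments (adjusted p = 7.7e-05), -1.05 ± 0.19 within experiment 1 (adjusted p = 0.00023) and -0.91 ± 0.19 within experiment 3 (adjusted p = 0.0035). Nop58 was called over both experiments, within experiment 1 and within experiment 3 under every setting run, and without each of the 12 libraries in turn. Its partner Nop56 had 78.7, 74.2 and 79.0 CPM in AdCL and 56.8, 39.7 and 56.4 in AdTGFb1 of experiment 1, and 72.0, 61.5 and 71.2 in AdCL and 72.5, 47.1 and 51.2 in AdTGFb1 of experiment 3. AdTGFb1 DC 954 was level with its controls, and Nop56 was called within experiment 1 (-0.60 ± 0.20, adjusted p = 0.031) but missed over both (-0.43 ± 0.15, adjusted p = 0.053). Fibrillarin (Fbl), the methyltransferase, had 46.6, 50.2 and 39.1 CPM in AdCL and 27.7, 34.8 and 28.3 in AdTGFb1 of experiment 1, and 33.3, 35.3 and 34.5 in AdCL and 24.1, 21.6 and 25.7 in AdTGFb1 of experiment 3. The groups separated within each experiment, and the change over both was -0.56 ± 0.15 (adjusted p = 0.016). Exons of Nop56 overlap those of Idh3b on the opposite strand, and the sources used here do not say whether strand was used in counting.

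The box H/ACA core, which makes pseudouridine, had 0 of 3 members called in either direction by edgeR or DESeq2, and 0 at an unadjusted p under 0.05 over both experiments. Nhp2, an RNA-binding core protein, had 49.4, 38.0 and 31.8 CPM in AdCL and 31.5, 42.5 and 33.5 in AdTGFb1 of experiment 1, and 46.4, 33.2 and 41.5 in AdCL and 26.7, 33.2 and 17.9 in AdTGFb1 of experiment 3. Its libraries overlapped, and the estimate was -0.39 ± 0.19 (adjusted p = 0.18). Dkc1, the pseudouridine synthase, had 9.30, 6.47 and 15.2 CPM in AdCL and 11.1, 17.5 and 20.9 in AdTGFb1 of experiment 1, and 15.1, 15.6 and 19.97 in AdCL and 18.01, 10.5 and 18.2 in AdTGFb1 of experiment 3. Its estimate of 0.28 ± 0.29 was positive (adjusted p = 0.58), and with a term for sex it was -0.04. Gar1, the third core protein here, had 7.44, 17.5 and 8.37 CPM in AdCL and 7.27, 11.5 and 8.66 in AdTGFb1 of experiment 1, and 11.3, 10.3 and 9.38 in AdCL and 7.12, 10.2 and 7.01 in AdTGFb1 of experiment 3. With these low counts its estimate was -0.32 ± 0.31 (adjusted p = 0.54). Nhp2 and Dkc1 share exon sequence with Rmnd5b and Mpp1 on the opposite strand.

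Of the 12 small subunit members, 5 were lower over both experiments and 0 were higher, and 3 of the 5, Ltv1, Rrp12 and Tsr1, act late, on the particle that is being exported and finished in the cytoplasm. Rrp12 had 51.9, 57.6 and 42.5 CPM in AdCL and 21.2, 28.6 and 24.5 in AdTGFb1 of experiment 1, and 28.5, 37.2 and 47.7 in AdCL and 27.5, 15.97 and 25.5 in AdTGFb1 of experiment 3. It was lower in every AdTGFb1 library than in the AdCL libraries of its own experiment, and the change over both was -0.87 ± 0.19 (adjusted p = 0.0034). Ltv1, which helps place proteins on the head of the subunit, had 108, 56.6 and 64.2 CPM in AdCL and 50.8, 56.5 and 49.8 in AdTGFb1 of experiment 1, and 64.6, 97.9 and 75.4 in AdCL and 38.2, 54.7 and 45.5 in AdTGFb1 of experiment 3. All 6 AdTGFb1 libraries were below all 6 AdCL libraries, AdCL DC 8 being just above AdTGFb1 DC 52, and the change was -0.66 ± 0.17 (adjusted p = 0.011). Wdr43, a WD repeat protein of the first complex to bind the precursor, had 154, 169.9 and 101 CPM in AdCL and 76.4, 93.5 and 75.6 in AdTGFb1 of experiment 1, and 75.9, 154 and 136 in AdCL and 119.5, 98.2 and 84.3 in AdTGFb1 of experiment 3. AdCL DC 943 was below all 3 AdTGFb1 libraries of its experiment, and the change of -0.53 ± 0.18 over both (adjusted p = 0.048) was -0.47 with a term for sex (adjusted p = 0.17). The remaining called members were Utp18, of the complex that binds next (-0.45 ± 0.15, adjusted p = 0.046), and Tsr1 (-0.71 ± 0.23, adjusted p = 0.039). With a term for sex their estimates were about as large, -0.45 for Utp18 and -0.75 for Tsr1, but neither passed (adjusted p = 0.12 and 0.090). The other 7 had estimates from -0.39 ± 0.26 for Rrp9, a protein of the U3 particle, to 0.33 ± 0.14 for Bms1, a GTPase of the early particle (adjusted p = 0.12), with Utp20, Utp15, Nop14, Heatr1 and Wdr75 between -0.20 and 0.33. Exons of Tsr1, Rrp9 and Heatr1 overlap those of Srr, Parp3 and Lgals8 on the opposite strand.

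None of the 9 large subunit members was called over both experiments by edgeR or DESeq2, in either direction, with 1 at an unadjusted p under 0.05 (Gnl3), and their median was -0.06. Nucleostemin (Gnl3), a nucleolar GTPase, had 95.5, 101 and 110.4 CPM in AdCL and 40.5, 91.1 and 68.4 in AdTGFb1 of experiment 1, and 89.8, 100.2 and 94.5 in AdCL and 85.4, 72.7 and 80.9 in AdTGFb1 of experiment 3. The libraries separated within each experiment, and it was called within experiment 1 (-0.61 ± 0.21, adjusted p = 0.036) but missed over both (-0.43 ± 0.16, adjusted p = 0.072). Pes1, Bop1 and Wdr12 form 1 complex that processes the large subunit RNA. Pes1 had 46.6, 37.2 and 45.5 CPM in AdCL and 53.6, 63.5 and 77.0 in AdTGFb1 of experiment 1, and 53.9, 76.6 and 51.7 in AdCL and 52.97, 43.6 and 67.0 in AdTGFb1 of experiment 3. It was above its controls in experiment 1 only, with an estimate there of 0.59 ± 0.22 that just missed (adjusted p = 0.054). Wdr12 had 4.34, 6.67 and 4.09 CPM in AdCL and 7.04, 14.2 and 12.4 in AdTGFb1 of experiment 1, and 10.5, 5.37 and 6.57 in AdCL and 9.14, 5.91 and 13.5 in AdTGFb1 of experiment 3. Its estimate over both, 0.75 ± 0.36, was the highest of the 36 and did not pass (adjusted p = 0.17). Bop1 was at -0.06 ± 0.18, and Nop2, Nop16, Rrp1, Rrp1b and Rrs1 lay between -0.16 and 0.23 (smallest adjusted p 0.41, for Rrp1). Exons of Gnl3, Wdr12, Rrp1b and Bop1 overlap those of Pbrm1, Carf, Hsf2bp and Mroh1 on the opposite strand.

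**Figure D2:**
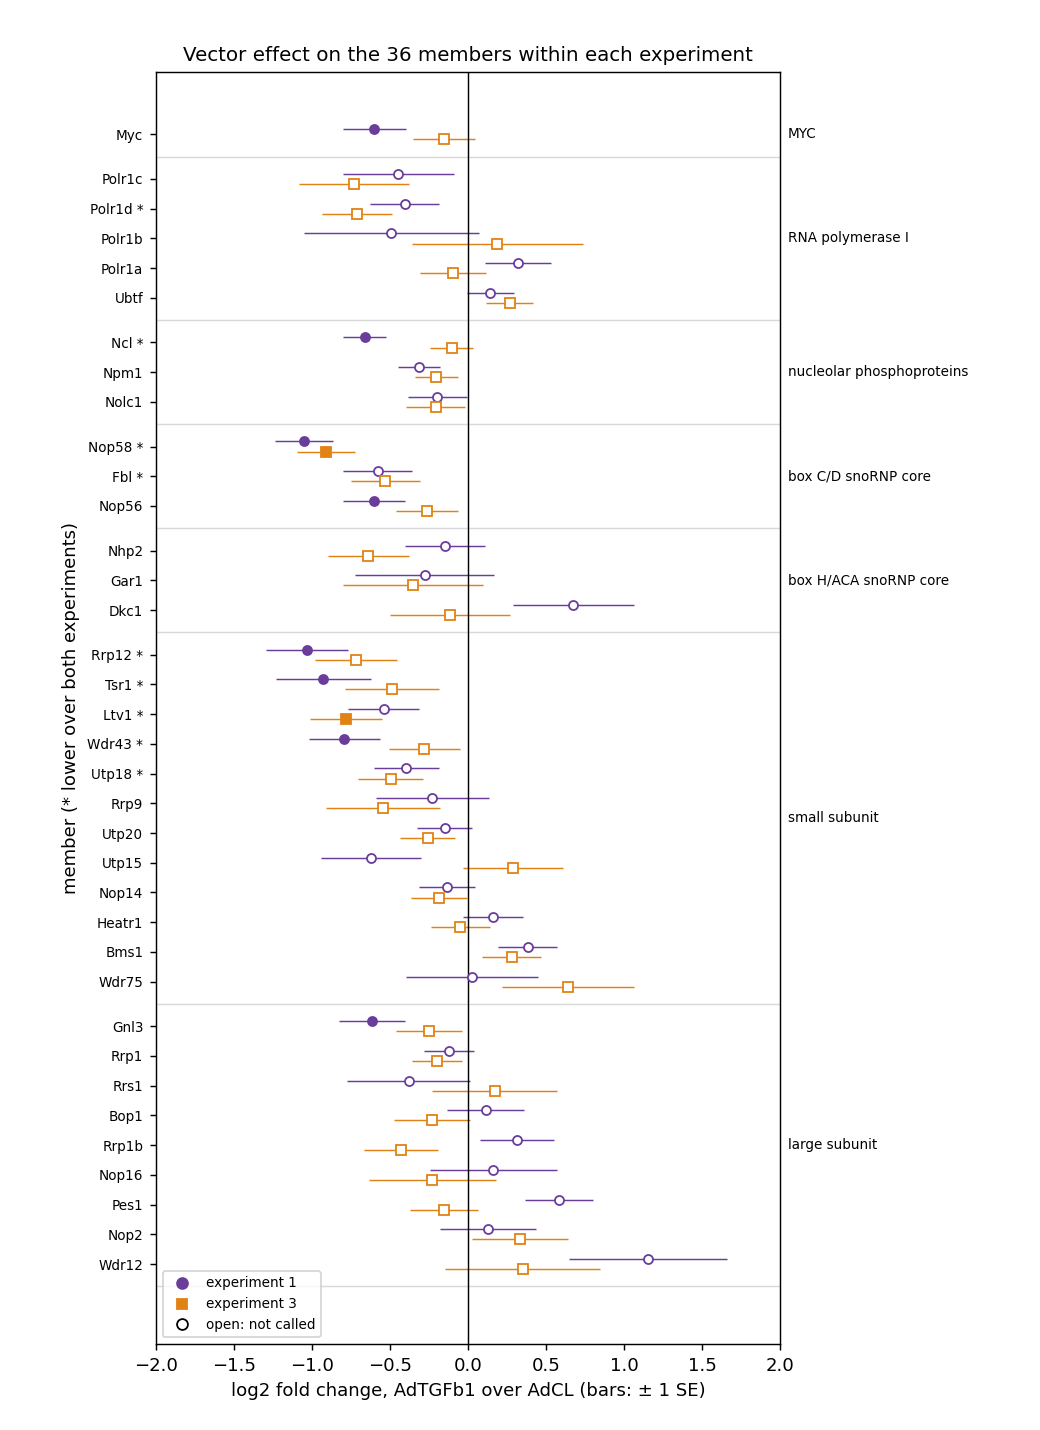
Log2 fold changes of AdTGFb1 over AdCL (x axis, bars ± 1 SE) for the 36 members by role (y axis), circles for experiment 1 and squares for experiment 3; filled marks are called at an adjusted p under 0.05 and stars mark members lower over both experiments. Box C/D and most small subunit members lie left of 0 in both experiments, while the large subunit members lie on both sides.

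By experiment, 8 members were lower and 0 higher in experiment 1 (Myc, Ncl, Nop56, Nop58, Wdr43, Tsr1, Rrp12 and Gnl3), beside 14.1% of all genes called lower and 10.6% called higher. DESeq2 called 10 lower, Npm1 and Fbl in addition, and 0 higher there, and edgeR had 2 higher at an unadjusted p under 0.05 (Pes1 and Wdr12). In experiment 3, 2 were lower (Nop58 and Ltv1) and 0 higher, beside 4.46% and 1.97% of all genes, so the members' 5.56% was near that of all genes; DESeq2 called 3 lower, Polr1d in addition, and 0 higher, and 0 were higher at an unadjusted p under 0.05. The only member called in both experiments was Nop58, 1 of 36, beside 549 of all 13221 genes called in the same direction in both. The interaction, the effect in experiment 3 minus that in experiment 1, called 0 of the 36 in edgeR, with 3 at an unadjusted p under 0.05 (Ncl, Pes1 and Rrp1b), beside 2.59% of all genes called lower and 3.43% higher, and DESeq2 called Ncl. The 2 experiments share no library, and 21 of the 36 estimates (58.3%) were below 0 in both, 5 were above 0 in both and 10 changed side, while 30.7% of all genes were below 0 in both.

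Without regard to the fit, the libraries of 12 members were all lower with AdTGFb1 in experiment 1, where 21.6% of all genes were, and those of Pes1 and Wdr12 were all higher, where 18.8% were. In experiment 3, 8 members were lower in this sense (Polr1d, Fbl, Nop58, Utp18, Utp20, Ltv1, Rrp12 and Gnl3), beside 12.9% of all genes, and Ubtf was higher, beside 11.5%. Over all 12 libraries only Nop58 and Ltv1 separated, both lower, beside 4.46% of all genes, and 0 members were higher throughout, beside 1.86%. Polr1d, Fbl, Nop58, Ltv1, Rrp12 and Gnl3 were thus below their controls within each of the experiments. The share of all genes that did so was not counted, so this says nothing on the members beside other genes.

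The control groups were also set side by side. In AdCL, 1 member (Ncl) was lower in experiment 3 than in experiment 1 and 0 were higher, beside 4.89% and 4.13% of all genes, with 2 higher at an unadjusted p under 0.05 (Polr1a and Pes1) and 0 higher in DESeq2. Without AdCL DC 7 Ncl was not called and Utp15 was called lower instead. In AdTGFb1, 0 members were called, beside 3.2% of all genes lower and 4.61% higher, with 4 at an unadjusted p under 0.05 (Myc, Polr1d, Rrp9 and Utp18), and DESeq2 called Utp18 lower.

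Scaled to exon length (annotation M21 of build GRCm38, all exons of a gene joined), Ncl was the most abundant member at 142 CPM per kb over the 12 libraries (SD 36.03), followed by Npm1 at 131 (SD 22.4), which overlapped it, and Rrp1 at 46.7 (SD 6.38). The least abundant were Polr1b at 1.87 CPM per kb (SD 0.975) and Wdr12 at 0.695 (SD 0.297). This ranking depends on the joined exon lengths, 10.19 kb for Ncl, 2.665 kb for Npm1 and 11.96 kb for Wdr12. Without the scaling Ncl averaged 1451 CPM and Npm1 349. Ncl alone made up 33.2% to 45.4% of the summed CPM of the 36 in a library. That sum was 4487 ± 294 CPM in AdCL and 3343 ± 197 in AdTGFb1 of experiment 1, and 3580 ± 490 and 3161 ± 159 in experiment 3 (SD, n = 3). AdTGFb1 libraries were below AdCL in experiment 1 and overlapped them in experiment 3. The TMM factors that scale the sum differed with the vector in experiment 1, at 0.881 to 0.919 in AdCL and 1.05 to 1.08 in AdTGFb1. As a share of raw counts the fall was smaller there, with means of 0.406% in AdCL and 0.358% in AdTGFb1. In experiment 3 these means were 0.350% and 0.331%. The box C/D sum separated in both, at 262 to 301.97 and 153 to 175 CPM in experiment 1 and at 209.6 to 282 and 139 to 177 in experiment 3, while the box H/ACA sum (59.2 to 72.8 and 43.1 to 53.98 CPM) and the large subunit sum separated in experiment 3 only. The sums of the phosphoproteins and of the small subunit separated in experiment 1 only.

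**Figure D3:**
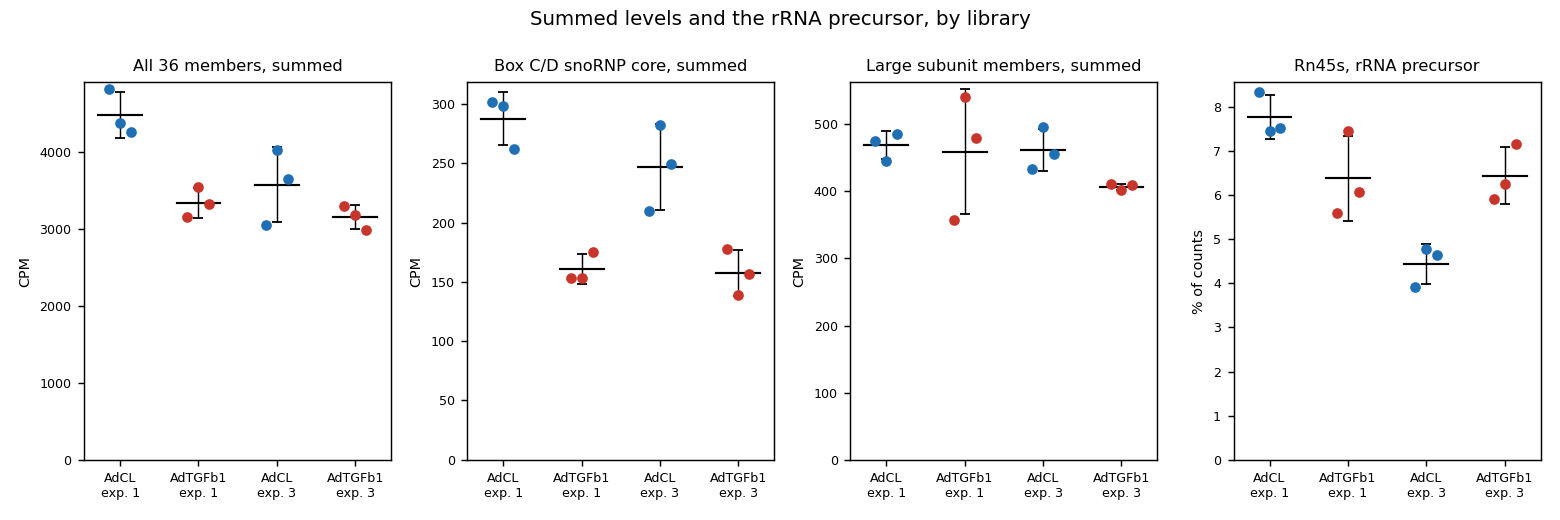
Summed CPM of all 36 members, of the 3 box C/D core genes and of the 9 large subunit members, and the share of counts on Rn45s (y axes, from 0), by group (x axis). Points are libraries and lines with bars the mean ± SD of 3. The box C/D sum is lower with AdTGFb1 in both experiments. The share on Rn45s is higher with AdTGFb1 in experiment 3. In experiment 1 its mean is lower, but AdTGFb1 DC 52 lies within the range of the controls.

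The table also counts Rn45s, the precursor RNA that these proteins act on, although the libraries were selected for polyadenylated RNA. Rn45s took 8.33%, 7.44% and 7.52% of counts in AdCL and 5.60%, 7.46% and 6.07% in AdTGFb1 of experiment 1, and 3.92%, 4.77% and 4.64% in AdCL and 5.91%, 6.25% and 7.16% in AdTGFb1 of experiment 3. In experiment 3 every AdTGFb1 library was above every AdCL library, and in experiment 1 AdTGFb1 DC 52 lay within the range of the controls as a share of counts. Relative to the TMM-scaled totals the change was -0.53 ± 0.13 within experiment 1 (adjusted p = 0.0043) and 0.44 ± 0.13 within experiment 3 (adjusted p = 0.044), and the difference of 0.96 ± 0.18 passed (adjusted p = 0.0026). In such libraries Rn45s also moves with how much ribosomal RNA the selection left, which was not measured. Its counts were not split into precursor and mature ribosomal RNA, so they are no measure of the precursor alone.

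A feature of the members that the choice by symbol did not use is that some enclose snoRNA genes within their bounds. By the M21 annotation, 7 of the 36 (19.4%) enclosed at least 1 snoRNA gene on the same strand, 21 snoRNAs in all, beside 1.46% of 15093 protein-coding genes with a count. These were Ncl, Nop56, Nop58, Dkc1, Wdr43, Tsr1 and Gnl3. In experiment 1, 6 of the 7 were lower, all but Dkc1, with a median of -0.66, beside 2 of the other 29 members, Myc and Rrp12, with a median of -0.15. Over both experiments 4 of the 7 were lower (median -0.43) and 5 of the 29 (median -0.16), and in experiment 3 1 of the 7 (median -0.26) and 1 of the 29 (median -0.20). This split was chosen after the values were seen. Over all tested genes with an enclosed snoRNA, leaving out the members and the ribosomal proteins, 37 of 185 were lower in experiment 1 (20%, beside 14.1% of all genes) and 5 of 185 in experiment 3 (2.70%, beside 4.46%). Higher were 25 of the 185 in experiment 1 (13.5%, beside 10.6% of all genes) and 5 in experiment 3 (2.70%, beside 1.97%). The snoRNAs themselves are mostly not polyadenylated, and their levels were not analysed here. Of those enclosed, Snora75 and Gm24148 (in Ncl), Snord57 (in Nop56), and Snord19 and Snord69 (in Gnl3) had counts of their own. These also overlapped annotated exons of their host on the same strand, and the part of this in the counts of Ncl, Nop56 and Gnl3 was not tested.

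The rest of the pathway was described with lists of other ribosome biogenesis genes, 112 of which were tested. Over both experiments 20 were lower and 1 was higher, with a median of -0.18. Of all genes tested, 10.4% were lower and 6.78% higher, and the counts over both experiments below stand beside these shares. Of 51 other large subunit factors 16 were lower and 0 higher (2 at an unadjusted p under 0.05; 1 in DESeq2), among them Mdn1, the AAA motor that strips factors from the particle, at 375 ± 56.8 CPM in AdCL and 206 ± 13.2 in AdTGFb1 (SD, n = 6; -0.86 ± 0.11, adjusted p = 4.4e-05), and the RNA helicase Ddx21 at 391 ± 94.5 and 243 ± 21.4 (-0.67 ± 0.13, adjusted p = 0.0015). By experiment, 20 of the 51 were lower in experiment 1 (39.2%, beside 14.1% of all genes) and 2 in experiment 3 (3.92%, beside 4.46%). Of 42 other small subunit factors 3 were lower, a smaller share than the 10.4% of all genes. They were Rcl1, Nol10 (-0.86 ± 0.15, adjusted p = 0.00058) and the kinase Riok1 (-0.67 ± 0.19, adjusted p = 0.019). The call of Riok1 was lost without 3 of the 12 libraries (AdCL DC 7, AdTGFb1 DC 52 and AdTGFb1 DC 54). Of 10 other polymerase I genes, Tcof1, which recruits the polymerase, was higher (0.60 ± 0.15, adjusted p = 0.0095) and Taf1d, of its promoter factor, lower (-0.46 ± 0.14, adjusted p = 0.029). The call of Taf1d was lost without any 1 of 7 libraries (the 6 of experiment 1 and AdTGFb1 DC 955), and with a term for sex Taf1d (-0.33, adjusted p = 0.20), Riok1 (-0.42, adjusted p = 0.18) and Tcof1 (0.48, adjusted p = 0.057) did not pass. Of 9 other snoRNA particle and assembly genes, 0 were called, with 1 at an unadjusted p under 0.05 (Znhit6, 0.74 ± 0.35), and Shq1 was at -0.76 ± 0.42. With a term for sex, 11 of these 112 genes were lower and 0 higher, beside 919 and 582 of all genes tested. The cytosolic ribosomal proteins, the cargo of this pathway, had 66 of 78 lower (median -0.48), for example Rps15 (-0.72 ± 0.11, adjusted p = 0.00011) and Rps24 (-0.69 ± 0.10, adjusted p = 0.00013).

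**Figure D4:**
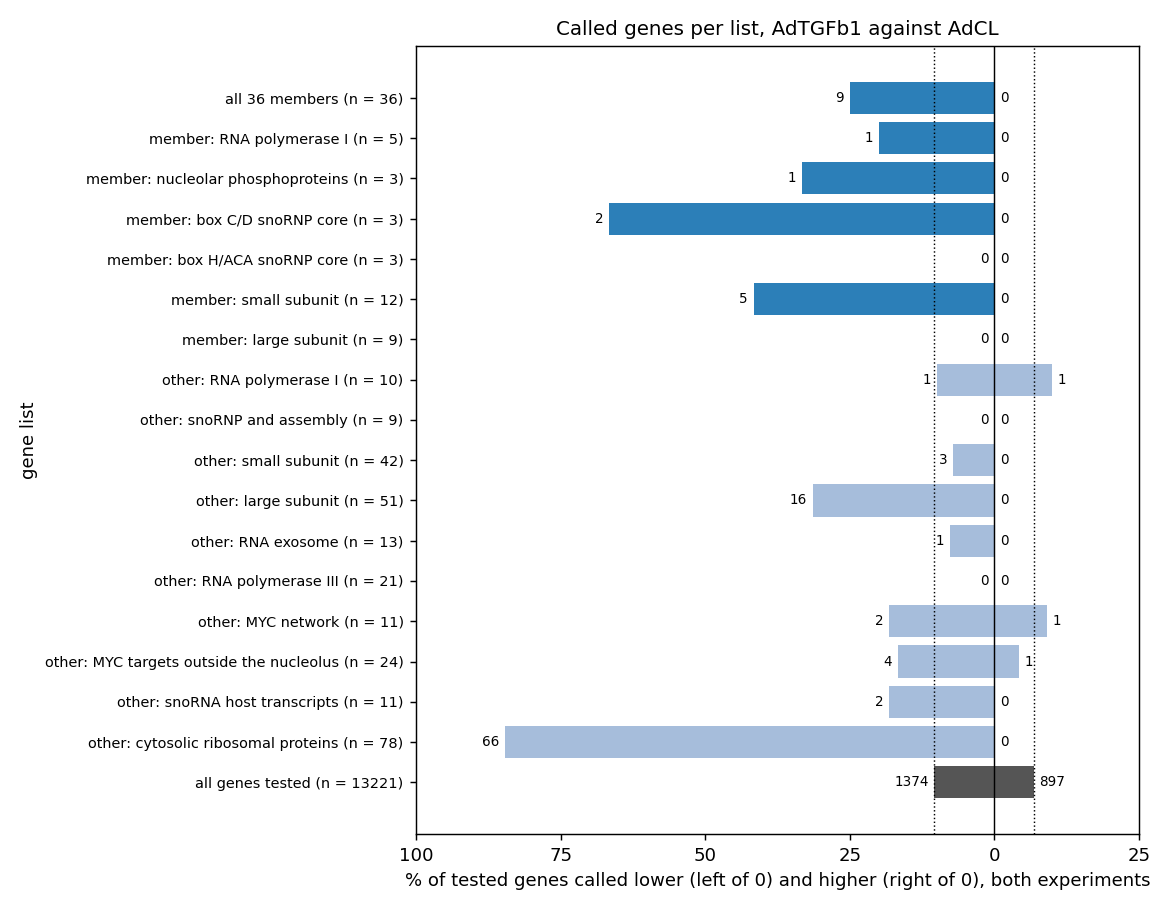
Percent of tested genes in each list (y axis, n in brackets) called lower, left of 0, or higher, right of 0 (x axis), over both experiments; numbers at the bars are the counts and dotted lines the shares of all 13221 genes. The ribosomal proteins (n = 78) reach 84.6%, the box C/D core members (n = 3) 66.7%, and the large subunit members (n = 9) 0%. The other large subunit factors lie above the share of all genes called lower, and the other small subunit factors below it.

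Several of the calls over both experiments rested on few libraries. The count of 9 lower members fell to 3 without AdCL DC 7 (Fbl, Nop58 and Rrp12), to 4 without AdCL DC 944 (Fbl, Nop58, Ltv1 and Rrp12) and to 5 without AdCL DC 8, AdCL DC 949, AdTGFb1 DC 14 or AdTGFb1 DC 54. Rrp12, like Nop58, passed without each of the 12 libraries, Fbl missed without AdCL DC 8 and Ltv1 without AdCL DC 7. Utp18 passed in 2 of these 12 refits, Ncl and Wdr43 in 3, Tsr1 in 6 and Polr1d in 8. Within experiment 1 the count of 8 fell to 3 without AdCL DC 7 (Ncl, Nop58 and Rrp12), to 4 without AdTGFb1 DC 54 and to 5 without AdCL DC 8 or AdTGFb1 DC 14. There Gnl3 passed in 6 of the 12 refits, Nop56 in 7, and Wdr43 and Tsr1 in 9. Within experiment 3, Ltv1 was lost without AdCL DC 944, AdCL DC 949, AdTGFb1 DC 954 or AdTGFb1 DC 956, which left Nop58.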

How the data were processed

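Polyadenylated RNA of CD11b DCs was sequenced as 12 directional libraries, per the labels' protocols. The submitters' processing notes name Trim Galore 0.4.1, cutadapt 1.9.1, STAR 2.5.0c, HTSeq, DESeq2 and build mm9. The authors deposited whole-number read counts per gene symbol. No row was without a symbol, and the strand setting of the counting is not given in the sources used here. Replicates of a group differed by far more than counting noise (chi-square per degree of freedom 24.7 to 47.5).

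Counts were tested with edgeR 4.0.16 (TMM, filterByExpr on the 4 groups, quasi-likelihood F test, two-sided, Benjamini-Hochberg over 13221 genes, called under 0.05). The vector effect over both experiments had the experiment as an additive term; a model of 4 groups gave the effect within each experiment, their difference, and experiment 3 against 1 per vector. SEs restate the F test. DESeq2 1.42.0, another normalisation, other filters, terms for sex and endothelial markers, and leaving out libraries were alternatives. On simulated counts over both experiments (12852 genes) the test recovered 14.6% of changes of 0.6 log2 units, 45.8% of 1.0, 55.1% of 1.5 and 71.4% of 2.0. Only 48 or 49 genes per size were changed there, drawn at random over all levels. In the data 1374 genes were called lower and 897 higher, so the adjusted cutoff was stricter in the simulation. These shares are therefore no measure of power for the members. At these depths 3 counts are 0.181 to 0.310 CPM.

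Members, lists and roles were chosen with earlier results of these data known, so counts per list are descriptions. All members are named. Values in every library are given for Myc and up to 3 members per role with the smallest adjusted p over both experiments, within either or for their difference. Each other list names up to 2 genes with the smallest adjusted p over both and at least 1 CPM, plus Rn45s. Any other gene was named after its values were seen. Exon overlap, exon length and enclosed snoRNAs come from annotation M21, of another build than the counts.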

Additional observations from a re-analysis of the deposited data

Results flagged for a closer look

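No member differed between the experiments at an adjusted p under 0.05 in edgeR, and 7 genes named here that are no members did, by the test of the difference itself (effect in experiment 3 minus effect in experiment 1, log2, edgeR's quasi-likelihood test). Rn45s differed by 0.961 (adjusted p = 0.0026), lower with AdTGFb1 in experiment 1 and higher in experiment 3. Gas5, a transcript that carries snoRNAs in its introns, differed by 1.11 (adjusted p = 0.0034), with changes of -1.33 ± 0.16 in experiment 1 and -0.22 ± 0.15 in experiment 3. Pmaip1, the p53 target that encodes NOXA, differed by 1.17 (adjusted p = 0.0031), with -1.15 ± 0.16 and 0.02 ± 0.16. Polr3d, a subunit of RNA polymerase III, differed by 1.33 (adjusted p = 0.022), with -1.32 ± 0.25 and 0.02 ± 0.24. Of the MYC targets outside the nucleolus, Ldha differed by -1.17 (adjusted p = 0.0069), Shmt2 by -1.30 (adjusted p = 0.045) and Cad by -1.37 (adjusted p = 0.045). These 3 were higher with AdTGFb1 in experiment 1 (0.96 ± 0.18, 1.15 ± 0.27 and 1.15 ± 0.29), and in experiment 3 their estimates were -0.21 ± 0.18, -0.16 ± 0.27 and -0.22 ± 0.28. Sex, endothelial markers and alveolar macrophage markers also differed between the groups of experiment 1, and their part was not tested.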

How the results depend on the processing

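No paired analysis was possible because the groups share no replicate numbers. The count of 9 members lower over both experiments was 10 with DESeq2, 9 with RLE normalization and 7 with TMM factors computed without members and ribosomal proteins. It was 5 with a term for sex, 5 with one for endothelial markers and 5 with no term for the experiment, and with the libraries of experiment 3 alone 2, while those of experiment 1 alone gave 7 lower and 1 higher, Pes1 (both single-experiment fits were chosen after seeing the data); leaving out each library gave 3 to 9. Within experiment 1 the lower count ran from 3 to 8 and the higher count from 0 to 2 without single libraries, and Pes1 was the 1 higher member without a low-count filter, with at least 5 CPM and with the TMM factors without members. Within experiment 3 the lower count was 3 with DESeq2 and with at least 5 CPM, and ran from 1 to 2 without single libraries. The interaction count was 1 in DESeq2 (0 to 1 without single libraries). Experiment 3 against 1 called 3 members in AdCL with DESeq2, 3 with no filter and 2 with at least 5 CPM (1 to 2 without single libraries), and in AdTGFb1 1 with DESeq2 and 1 with no filter (0 to 1).

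Other pathway genes lower were 11 with a term for sex, 13 with one for endothelial markers and 3 in experiment 3 alone (13 to 21 without single libraries); those higher were 2 with DESeq2, with no filter and in experiment 1 alone, and 0 with a term for sex and in experiment 3 alone (1 to 2). All genes called over both experiments were 1501 with a term for sex and 748 in experiment 3 alone. The interaction called 1286 genes in DESeq2, 1222 with no filter and 530 to 956 without single libraries; experiment 3 against 1 called 660 to 1247 in AdCL and 570 to 1147 in AdTGFb1, and the vector 498 to 871 within experiment 3. On raw totals the summed CPM was 4057 in AdCL and 3578 in AdTGFb1 of experiment 1.

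Signs turned only for genes not called over both experiments, for Pmaip1, and for Myc and Ncl within experiment 3. In experiment 3 alone the estimate was -0.087 for Polr1a, 0.20 for Polr1b, -0.11 for Dkc1, 0.29 for Utp15, -0.039 for Heatr1, 0.18 for Rrs1, -0.15 for Pes1, 0.027 for Polr3d, 0.031 for Pmaip1 and 0.44 for Rn45s; in experiment 1 alone it was 0.18 for Nop16, 0.33 for Rrp1b and 0.13 for Bop1. With a term for sex it was 0.16 for Polr1b, -0.043 for Dkc1, -0.053 for Heatr1 and 0.084 for Rn45s, with endothelial markers 0.16 for Utp15, 0.026 for Rrs1 and 0.15 for Rn45s, and with no term for the experiment 0.0068 for Nop16. Without single libraries the estimates ran from -0.35 to 0.20 for Polr1b, -0.13 to 0.17 for Nop16, -0.24 to 0.062 for Rrp1b, -0.30 to 0.10 for Rrs1, -0.15 to 0.054 for Bop1 and -0.15 to 0.059 for Rn45s, and within experiment 3 from -0.27 to 0.018 for Myc and -0.26 to 0.044 for Ncl. The causes were not tested.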

Other observations

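Genes next to the nucleolar pathway did not move as 1 group. Among 24 MYC targets outside the nucleolus, 4 were lower (Eif4e, Ccnd2, Odc1 and Slc3a2) and 1 was higher (Gart) over both experiments, beside 10.4% and 6.78% of all genes tested. Eif4e, the cap-binding translation factor, stood at 123 ± 11.3 CPM in AdCL and 69.9 ± 6.07 in AdTGFb1 (SD, n = 6) and was lower in both experiments (-0.87 ± 0.16 and -0.75 ± 0.16, adjusted p = 0.00035 and 0.0051 in edgeR). Ccnd2, the G1 cyclin, was at 234 ± 71.9 and 97.7 ± 30.6 CPM and was also lower in both (-1.74 ± 0.24 and -0.90 ± 0.23, adjusted p = 1.2e-05 and 0.020 in edgeR). In experiment 1 this list had 4 genes lower and 4 higher. The higher ones were Ldha, Gart, Shmt2 and Cad, enzymes of lactate, purine, serine and pyrimidine metabolism, named after their values were seen. For Ldha (a log2 difference of -1.17), Shmt2 (-1.30) and Cad (-1.37) the effect was lower in experiment 3 than in experiment 1 by edgeR's test of the difference. Dividing-cell markers moved the same way: 5 of 10 were higher with AdTGFb1 in experiment 1, 3 of 10 were lower in experiment 3, and the difference was called for 5. Their part in the metabolic genes was not tested.

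In the MYC network, 2 of 11 genes were lower and 1 higher (Mxd4) over both experiments. This count and those of the lists below stand beside 10.4% of all genes lower and 6.78% higher over both experiments. Zbtb17, which encodes the MYC partner MIZ1, was at 80.9 ± 27.7 CPM in AdCL and 43.6 ± 7.98 in AdTGFb1 (-0.85 ± 0.19, adjusted p = 0.0050 in edgeR), and Mxd1, an antagonist of MYC, at 462 ± 75.1 and 357 ± 71.5 (-0.38 ± 0.11, adjusted p = 0.027 in edgeR). Mxd1 lost its call without any 1 of 7 libraries (AdCL DC 7, 9, 944 and 949, AdTGFb1 DC 14, 54 and 956) and with a term for sex (-0.34, adjusted p = 0.0996 in edgeR). Of 11 noncoding snoRNA host transcripts, Snhg1 was lower within each experiment (-1.12 ± 0.24 and -0.84 ± 0.24) and Gas5 over both (-0.77 ± 0.17, adjusted p = 0.0046 in edgeR), though not with a term for sex (-0.55, adjusted p = 0.058 in edgeR). RNA polymerase III, which makes the smallest ribosomal RNA and the transfer RNAs, had 0 of 21 genes called over both experiments in edgeR, with 2 higher and 2 lower at an unadjusted p under 0.05 and 1 lower in DESeq2. Polr3d was at -0.65 ± 0.24 (adjusted p = 0.070 in edgeR) and Gtf3c6 at 0.63 ± 0.24 (adjusted p = 0.088 in edgeR). Of 13 exosome genes, which trim the precursor RNA, the helicase gene Skiv2l2 was lower (-0.53 ± 0.14, adjusted p = 0.014 in edgeR, and 0.067 with a term for sex), and Exosc7 was at 1.14 ± 0.55 (adjusted p = 0.17 in edgeR). Of 11 p53 targets, Pmaip1 was lower (-0.56 ± 0.18, adjusted p = 0.043 in edgeR), a call lost without any 1 of 8 libraries (the 6 of experiment 1, AdCL DC 944 and AdTGFb1 DC 955) and with a term for sex (-0.29, adjusted p = 0.37 in edgeR). Ccng1 was at 0.41 ± 0.16 (adjusted p = 0.083 in edgeR).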
